A study of Mus musculus with 12 samples.

Results

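The genes described here encode substrate-selecting parts of ubiquitin ligases: RING finger proteins (Rnf), tripartite motif proteins (Trim), F-box proteins (Fbxo, Fbxl and Fbxw) and suppressors of cytokine signalling (Socs). They were taken from a table of m6A peaks in mouse liver by symbol, as every gene whose name starts with Rnf, Trim, Fbxo, Fbxl, Fbxw or Socs followed by a digit. Genes with a KEGG cell cycle or Wnt code were left out, which removed Fbxw11 and Rnf43. The rule gave 119 of the 10277 named genes and 216 of the 17503 peaks in the table. They comprise 54 Rnf genes with 95 peaks, 22 Trim genes with 41, 20 Fbxo genes with 32, 11 Fbxl genes with 27, 7 Fbxw genes with 12 and 5 Socs genes with 9.

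The study compared N6-methyladenosine (m6A) in livers of C57BL/6 mice by MeRIP-seq, in which RNA fragments bound by an anti-m6A antibody are sequenced beside input RNA. There were 12 libraries in 4 groups of 3 replicates: Mettl3-deficient m6A immunoprecipitation (IP), Mettl3-deficient input, wild-type IP and wild-type input. METTL3 is the enzyme subunit that places m6A on mRNA. How Mettl3 was inactivated and in which cells, and the age and sex of the mice, are not given in the labels used here. Among the markers checked, 5 of 6 hepatocyte genes had a listed peak, as did 5 of 6 endothelial, 6 of 6 macrophage and leukocyte, 4 of 5 stellate and 3 of 5 cholangiocyte genes. The table thus holds transcripts of several liver cell types, and a peak is not assigned to one of them.

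All values of single peaks come from the authors' deposited table of the comparison between genotypes, which gives a log2 fold change and the log10 of a false discovery rate (FDR) for each peak. A peak is here called when that FDR is 0.05 or below. The table holds no values per library, so the read depth and the spread between mice are unknown, and no peak could be tested anew. The numerator of the fold change is not stated. From the design alone, negative values likely mean less m6A enrichment in Mettl3-deficient than in wild-type liver, and values are given as negative or positive. The labels could not be checked on Mettl3 itself, of which no peak was analysed here. Fewer cells of a type and less methylation per transcript cannot be told apart in whole liver. Intervals below are 95% intervals for counting error over peaks or genes, which are not replicates.

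Ubiquitin ligases hand ubiquitin from a conjugating enzyme (E2) to a chosen protein, often to mark it for the proteasome. RNF and most TRIM proteins carry a RING domain that binds the E2 directly. F-box and SOCS proteins instead bring substrates to cullin-RING ligases: the F-box binds SKP1 on cullin 1, and the SOCS box binds elongins B and C, which join cullin 5. In liver, ligases of these families act in sterol sensing, degradation of misfolded proteins of the endoplasmic reticulum, antiviral signalling and the damping of growth hormone and cytokine signals.

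Called peaks of the ligase genes were mostly negative, with a higher negative share than in all other genes. Of their 216 listed peaks, 158 (73.1%) were called, against 76.2% of all listed peaks. Of these, 112 were negative and 46 positive, where 40.6% of all listed peaks were called negative and 35.6% called positive. Negative peaks made up 70.9% of the called peaks of ligase genes (63.4 to 77.4%) and 53.0% of those of all other genes (52.2 to 53.9%).

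The same held with 1 value per gene. The leading peak of a gene is the one with the smallest FDR, and it was called in 95 of the 119 ligase genes (79.8%), against 81.1% of all genes. It was negative and called in 73 genes (61.3%), where the share over all genes was 47.6%, and positive and called in 22 (18.5%), where the share over all genes was 33.6%. Among called leading peaks, 76.8% were negative in ligase genes (67.4 to 84.2%) and 58.4% in all other genes (57.4 to 59.5%). The median leading change was -1.08 on the log2 scale in ligase genes (quartiles -1.77 and 0.74) and -0.51 in all other genes (quartiles -1.43 and 0.78). With the mean over all peaks of a gene in place of the leading peak, the median over ligase genes was -0.52. Negative called leading peaks had a median of -1.62 in ligase genes, a ratio of 0.325, and -1.41 in all other genes, a ratio of 0.376. Positive ones had a median of 0.81 in ligase genes, a ratio of 1.75, and 0.74 in all other genes, a ratio of 1.67. Leading changes of 1 or more in size (log2 scale) made up 59 of the 73 negative and 6 of the 22 positive ones in ligase genes.

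For 24 ligase genes no peak was called. Their leading values ran from -1.44 to 3.81 in the authors' deposited table, 20 of them positive and 4 negative, and 7 were below 1 in size. The highest was Rnf183, at 3.81 with a log10 FDR of -0.47 in the authors' deposited table. These peaks were also narrower, with a median width of 225 bp, against 717 bp for the called leading peaks, and 20 of the 24 genes had a single listed peak.

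Side by side, 5 of the 6 families had a negative median and more negative than positive called genes, with Fbxw the exception. The leading peak was negative, positive or not called in 31, 11 and 12 Rnf genes, in 15, 2 and 5 Trim genes, and in 13, 4 and 3 Fbxo genes. The same counts were 9, 1 and 1 for Fbxl, 2, 3 and 2 for Fbxw, and 3, 1 and 1 for Socs. The negative share of called genes was 73.8% in Rnf (58.9 to 84.7%), 88.2% in Trim (65.7 to 96.7%) and 76.5% in Fbxo (52.7 to 90.4%). It was 90.0% in Fbxl (59.6 to 98.2%), 40.0% in Fbxw (11.8 to 76.9%) and 75% in Socs (30.1 to 95.4%). These intervals overlap for every pair of families, so the order of the shares is not settled by these counts.

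Median leading changes were -1.42 in Fbxl, -1.27 in Fbxo, -1.24 in Socs, -1.24 in Trim, -0.79 in Rnf and 0.77 in Fbxw. Their intervals also overlapped, the widest running from -2.89 to 2.09 in Socs and that of Fbxw from -2.06 to 2. Over 3′ UTR peaks alone, the signs turned in Fbxw (-1.12) and Socs (0.74). With peaks of up to 1000 bp alone, they turned in Rnf (0.23), Fbxw (-0.10) and Socs (0.74). Keeping Fbxw11, which the KEGG code removes, turned the Fbxw median as well (-0.18). The direction of the Trim, Fbxo and Fbxl medians was the same under each of the alternatives run. Of these, the limits on FDR and size and the counting of overlapping peaks once could not change a median. Keeping the KEGG-coded genes added none to these families, and none of their leading peaks lay outside the RefSeq span. Subtracting the overall median of 0.34 could only lower a negative median. These alternatives therefore could not turn the Trim, Fbxo and Fbxl medians.

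**Figure D1:**
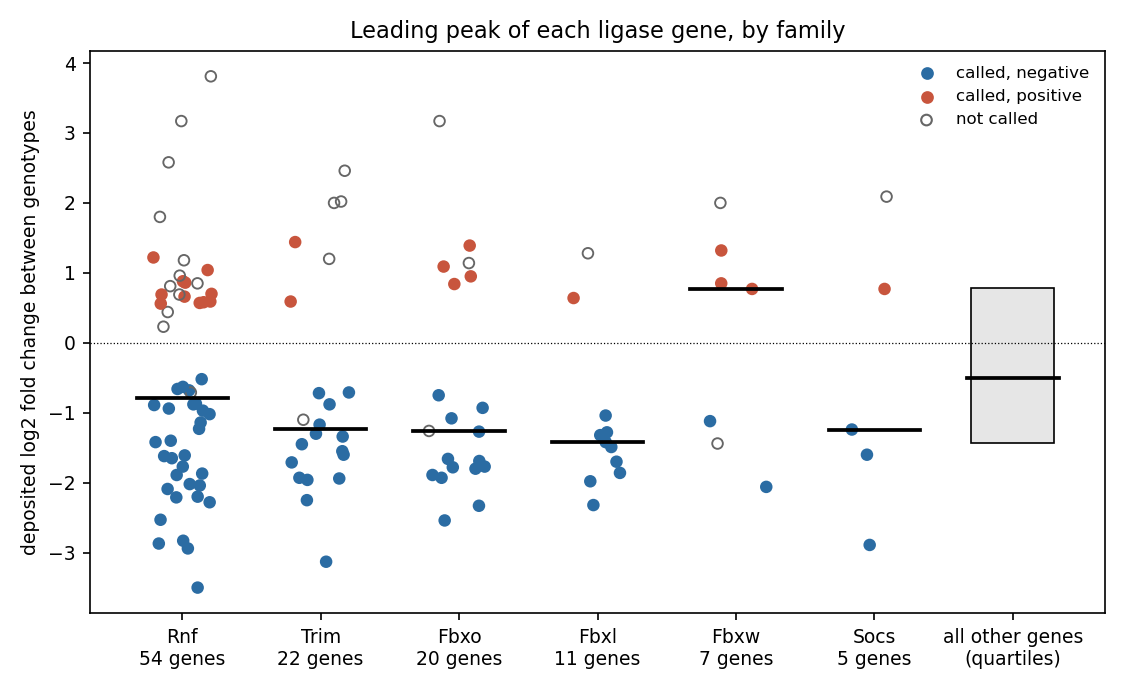
Deposited log2 fold change of the leading peak of each ligase gene, by family, with 1 point per gene, filled where called and open where not called, and a bar at each family's median; the box gives the quartiles and median of all other genes. Negative called genes form the larger part of each family except Fbxw, and the highest values, up to 3.81, belong to genes that were not called.

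Among the RING genes, 10 of the 11 on the list of ligases in membranes of the endoplasmic reticulum and other organelles were in the table. Of these, 8 were negative by their leading peak, 1 was positive and 1 uncalled, with a median of -1.82; over all genes 47.6% were called negative. Counted by peaks, 13 of their called peaks were negative and 6 positive. Rnf185 and Rnf5 encode related ligases that degrade misfolded proteins of the endoplasmic reticulum, and they lay on opposite sides. The Rnf185 leading peak, in the 3′ UTR at chr11:3417090-3417989 (mm10), stood at -2.83, with the lowest log10 FDR of the table (-434), and its other called peak at -0.98 in the authors' deposited table. Rnf5 had 1 peak, in the 5′ UTR, at 0.57 in the authors' deposited table.

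Rnf139 and Rnf145 encode sterol-linked ligases that act in the degradation of HMG-CoA reductase. The authors' deposited table has -1.62 (log10 FDR -232) for the 1 Rnf145 peak and -2.04 (log10 FDR -434) for the leading peak of Rnf139, both in 3′ UTRs. Rnf139 had 3 further called 3′ UTR peaks in the authors' deposited table, at -1.34, 0.59 and 0.69. The negative peaks of Rnf139 overlap each other, as do the positive ones, so these 4 values are not 4 separate sites. Rnf103, a ligase of the endoplasmic reticulum, and Rnf186 had leading 3′ UTR peaks of -2.28 and -2.87 in the authors' deposited table.

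Genes for RBR ligases, which pass ubiquitin through their own cysteine, had 4 negative leading peaks, none positive and 3 not called among 7 listed. That is 57.1% negative, against 47.6% over all genes. The authors' deposited table gives -2.21 for Rnf144b, -2.02 for Rnf19a, -1.42 for Rnf217 and -1.23 for Rnf19b, all in 3′ UTRs. Rnf14, Rnf144a and Rnf216, the other RBR genes listed, were not called, with positive values of 0.81, 1.8 and 0.96 given by the authors' deposited table.

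Genes for PA-TM-RING ligases, which sit in endosomal and other membranes with a protease-associated domain on the far side, had 1 negative, 3 positive and 1 uncalled leading peaks among 5 listed, with a median of 0.66. Over all genes, 33.6% were called positive. Rnf128 encodes GRAIL, known for its part in T cell anergy, and its single 3′ UTR peak at 1.22 was the highest called leading value among Rnf genes in the authors' deposited table. In the authors' deposited table the leading peak of Rnf130 had 0.66, that of Rnf167 0.59 and that of Rnf13 -2.20. Rnf130 also held 2 called peaks at -2.26 and -2.15 in the authors' deposited table, so its positive class rests on the ranking by FDR. By peaks, the group had 4 negative and 4 positive called ones. Rnf43, also of this group but left out by its KEGG code, had negative called peaks at -2.53 and -1.86 in the authors' deposited table. The counts and the median of the group do not include it.

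Of 8 listed genes that act on chromatin and at DNA breaks, 6 were negative and 2 positive, with a median of -0.78, close to that of all Rnf genes (-0.79). The negative share was 75%, against 47.6% over all genes. Rnf8 and Rnf168 encode the ligases that mark chromatin around DNA breaks with ubiquitin, and their leading peaks had -1.14 and -0.87 in the authors' deposited table. Rnf20 and Rnf40 encode partners in 1 complex that ubiquitylates histone H2B, and lay apart at 1.04 and -0.52 in the authors' deposited table. The Rnf20 peak is 151 bp wide at the gene end, whereas that of Rnf40 spans 6555 bp of the genome, introns included, in the authors' deposited table.

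Among 6 listed genes of cytokine and innate signalling, 4 were negative (66.7%, against 47.6% over all genes), 1 positive and 1 not called. Rnf135 encodes Riplet, which activates the viral RNA sensor RIG-I, and Rnf125 encodes a ligase that marks RIG-I for degradation. Both were negative in the authors' deposited table, the last-exon peak of Rnf135 at -1.65 and the 3′ UTR peak of Rnf125 at -1.89. Rnf213, a very large ATPase and ligase linked to moyamoya disease, had 5 listed peaks. From its start to its end they stood at 2.25, -0.60 (not called), -1.26, -0.89 and 0.57 in the authors' deposited table. Its called peaks were thus positive at both ends of the gene and negative between.

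Outside these lists, the most negative Rnf values were -3.50 in the last exon of Rnf39, the lowest leading value of any ligase gene, and -2.94 in the 3′ UTR of Rnf225, in the authors' deposited table. The evidence differed, with a log10 FDR of -16.8 for Rnf39 and of -1.53 for Rnf225 in the authors' deposited table. Next to Rnf128 and Rnf20, the highest called leading values were 0.88 for Rnf10 and 0.86 for Rnf126 in the authors' deposited table. RNF126 works with BAG6 in the quality control of membrane proteins left in the cytosol.

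Trim genes were negative in 15 of 17 called cases. The family is divided by what follows the tripartite motif, and the largest class carries a PRY-SPRY domain. Of 14 listed genes of that class, of 34 on the list, 10 were negative, none positive and 4 not called, with a median of -1.24. The negative ones made up 71.4%, against 47.6% over all genes. Trim7, whose protein binds glycogenin, had the family's lowest value, a 3′ UTR peak of -3.13 (log10 FDR -240) in the authors' deposited table. Trim27 followed with -2.25 in the authors' deposited table, where its log10 FDR was -181. Trim25 and Trim21, which encode a ligase that acts on RIG-I and a cytosolic antibody receptor, had leading 3′ UTR peaks at -1.60 and -1.34 in the authors' deposited table. The PRY-SPRY genes that were not called include Trim30b, Trim30c and Trim34a of the cluster on chromosome 7, closely related genes between which reads may be shared, which was not tested.

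Trim28 and Trim33 encode related PHD-bromodomain corepressors, and their leading peaks had opposite signs. The authors' deposited table lists -1.96 and -0.70 for the 3′ UTR peaks of Trim33, and 0.59 and -0.99 for those assigned to Trim28. The negative Trim28 peak lies 24835 bp upstream of the gene end and outside the RefSeq span of the gene. Both NHL-repeat genes listed were negative, Trim2 at -1.55 and Trim3 at -0.88 in the authors' deposited table. Trim8 and Trim45 had 3 called peaks each, all negative, from -0.72 to -1.71 and from -0.99 to -1.93 in the authors' deposited table. Trim13, which encodes a ligase anchored in the endoplasmic reticulum, had the highest called value of the family, 1.44 over a 6291 bp peak labelled 5′ UTR in the authors' deposited table.

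The F-box genes fall into classes by the repeats that hold the substrate. Genes of the Fbxl class, with leucine-rich repeats, were negative in 9 of 10 called cases and had 2.45 listed peaks per gene, against 1.70 in all other genes. The authors' deposited table has its lowest leading value of the class, -2.32, for the Fbxl21 3′ UTR. Fbxl5 encodes an iron sensor that directs the degradation of iron regulatory protein 2. The authors' deposited table has -1.04 for its exon peak and 0.94 for its 3′ UTR peak. Fbxl15 and Fbxl6 were also among the most negative of the class, at -1.98 and -1.70 in the authors' deposited table. The exception was Fbxl12, with a leading peak of 0.64 and another of -2.10, both called and both labelled 5′ UTR, in the authors' deposited table.

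Fbxo genes, whose proteins have other or no known repeats, were negative in 13 of 17 called cases. The lowest leading values in the authors' deposited table were -2.54 for Fbxo8 (log10 FDR -163), -2.33 for Fbxo34 (log10 FDR -241), -1.93 for Fbxo3 and -1.89 for Fbxo33. Positive called values were smaller, at 1.39 for Fbxo10, 1.09 for Fbxo25, 0.95 for Fbxo44 and 0.84 for Fbxo9 in the authors' deposited table. For Fbxo10 the log10 FDR was -1.32 in the authors' deposited table, just past the threshold of 0.05.

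Fbxw genes, with WD40 repeats, gave 2 negative, 3 positive and 2 uncalled genes. FBXW7 directs the degradation of MYC, cyclin E, Notch and SREBP proteins, and both 3′ UTR peaks of its gene were negative, at -1.12 and -0.96 in the authors' deposited table. Fbxw2 was negative at all 3 peaks in the authors' deposited table, with -2.06 for the 5′ UTR peak, -1.30 for an exon peak and -1.27 for the 3′ UTR peak. Fbxw8, whose protein works with cullin 7, had 1.32, Fbxw4 had 0.85 and Fbxw9 had 0.77 in the authors' deposited table. Of these positive leading peaks, those of Fbxw8 and Fbxw4 were labelled 5′ UTR and that of Fbxw9 lay in the 3′ UTR. Fbxw17 (-1.44) and Fbxw20 (2) were not called in the authors' deposited table. The Fbxw class thus had 3 of 4 called 3′ UTR peaks negative.

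Socs genes divide into those with a short amino-terminal part, which restrain JAK kinases and cytokine receptors, and those with a long one, which act mainly on receptor tyrosine kinase and insulin signals. Of the short class only Socs2, a brake on growth hormone signalling, was listed, with 1 uncalled peak at 2.09 in the authors' deposited table. All 4 long members were called, 3 negative and 1 positive. Socs6 had -2.89 in its 3′ UTR (log10 FDR -194) in the authors' deposited table, next to uncalled peaks at -0.81 and -0.76. In the authors' deposited table Socs5 had -1.60 for its 5′ UTR peak and an uncalled 0.71 for its 3′ UTR peak. Both peaks of Socs4 were called in the authors' deposited table, the 5′ UTR one at -1.24 and the last-exon one at -1.90. Socs7 was the positive one, at 0.77 in its 3′ UTR in the authors' deposited table. The 5′ UTR peaks of Socs4 and Socs5 span 13283 and 12371 bp and cover 69.2% and 40.7% of the gene, so they are not confined to the start of the transcript.

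**Figure D2:**
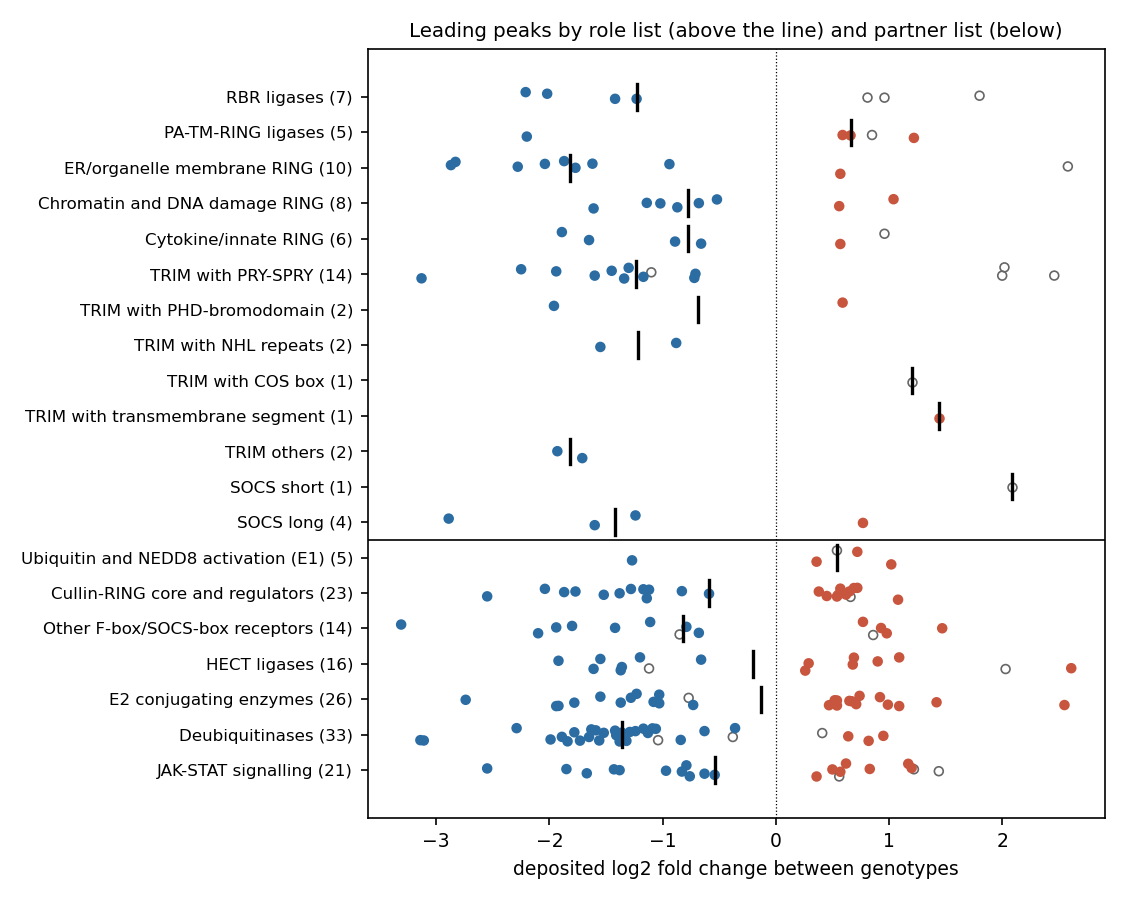
Deposited log2 fold change of leading peaks by list, with 1 point per gene (blue negative and called, red positive and called, open not called) and a bar at the median; role lists of the ligase genes stand above the line and partner lists below it, with the number of listed genes in brackets. Organelle membrane RING genes (median -1.82) and PRY-SPRY Trim genes (median -1.24) lie mostly left of 0, while 1 of the 5 PA-TM-RING genes (median 0.66) does. Rnf43, a PA-TM-RING gene with negative peaks, was left out by its KEGG code.

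Lists of genes that work with these ligases gave the following counts of leading peaks. Over all genes, 47.6% had a negative called leading peak and 33.6% a positive one. The 23 listed genes of the cullin-RING core and its regulators gave 12 negative, 10 positive and 1 uncalled leading peaks, with a median of -0.59. Among the scaffold genes, Cul1, Cul3 and Cul5 were negative (-1.38, -1.14 and -1.87) in the authors' deposited table, Cul7 was positive (0.62) and Cul4a was not called (0.66). Cand1, which encodes the exchange factor of cullin ligases, was negative (-2.55) and Cand2 positive (0.69, log10 FDR -271) in the authors' deposited table. Elob (0.65), Eloc (0.72), Rbx1 (0.45) and Nedd8 (0.38), genes of the small subunits and of the modifier that activates cullins, were positive in the authors' deposited table. The 26 genes with Ube2 symbols, most of them for E2 enzymes, gave 12 negative and 13 positive, with Ube2d-ps and Ube2cbp included by symbol, and the 16 HECT ligases, which carry another catalytic domain, gave 7 of each. Of 5 genes for activating enzymes, 1 was negative and 3 positive. Other F-box and SOCS-box receptor genes gave 8 negative and 4 positive of 14. The 33 genes with Usp symbols, nearly all for deubiquitinases, gave 27 negative and 3 positive, with a median of -1.36. They include by symbol Usp6nl, a Rab GTPase-activating protein gene, at -1.89 in the authors' deposited table. The 21 listed JAK-STAT genes, which SOCS proteins restrain, gave 11 negative and 7 positive, and by peaks 17 negative and 19 positive. The authors' deposited table has -1.67 for Ifnar1 and -0.97 for Jak1, and 1.17 for Stat3 and 0.83 for Stat5b. As shares of listed genes, negative ones made up 52.2% for the cullin-RING core, 46.2% for Ube2, 43.8% for HECT and 52.4% for JAK-STAT. These shares are near the 47.6% over all genes. The share was 57.1% for the other receptors, 81.8% for Usp and 20% for the activating enzymes.

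The sign of a peak moved with its place in the transcript. In ligase genes, 44.4% of the 27 called 5′ UTR peaks were negative (27.6 to 62.7%), against 29.98% in all other genes (28.4 to 31.6%). In exons outside the UTRs the share was 88.5% of 26 called peaks (71.0 to 96.0%), against 61.4% in all other genes (59.4 to 63.5%). In 3′ UTRs it was 73.3% of 105 called peaks (64.2 to 80.9%), against 60.2% in all other genes (59.2 to 61.3%). The ligase genes thus had a higher negative share in each feature class, although the intervals overlap for 5′ UTRs. The placement of the peaks was alike, with 59.3% of the listed peaks of ligase genes in 3′ UTRs, against 56.0% in all other genes.

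Within exons, 12 of 13 called internal-exon peaks were negative in ligase genes (92.3%, 66.7 to 98.6%), against 57.0% in all other genes (54.2 to 59.7%). For last exons the count was 6 of 6, against 83.9% in all other genes. By family, the negative count in 3′ UTRs was 20 of 23 called peaks in Trim (67.9 to 95.5%), 34 of 50 in Rnf (54.2 to 79.2%), 12 of 16 in Fbxo, 7 of 10 in Fbxl, 3 of 4 in Fbxw and 1 of 2 in Socs. The interval of Trim lies above the 60.2% of all other genes, and that of Rnf contains it.

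**Figure D3:**
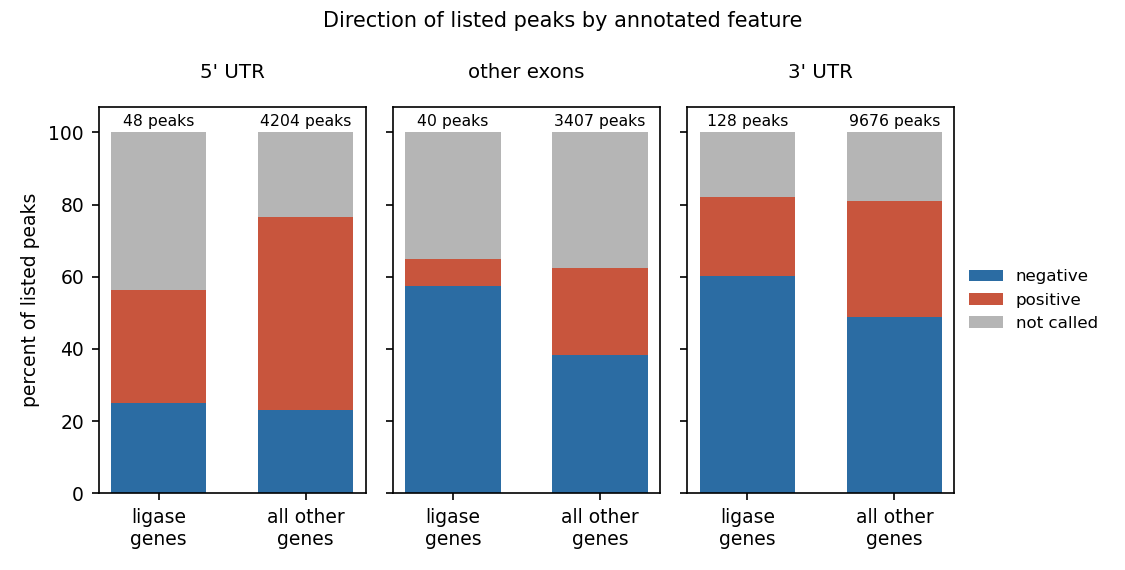
Share of listed peaks that were called negative, called positive or not called, as percent of the listed peaks in each annotated feature, for ligase genes and all other genes. The blue negative part is larger in ligase genes in exons and 3′ UTRs, and 5′ UTRs of ligase genes hold more uncalled peaks (21 of 48).

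Peaks at transcript starts were mostly positive in ligase genes too. Of 18 called 5′ UTR peaks that touched the start of their transcript, 12 were positive and 6 negative (33.3% negative, 16.3 to 56.3%), against 25.8% negative in all other genes. Of 9 called 5′ UTR peaks away from the start, 6 were negative (66.7%, 35.4 to 87.9%), an interval that contains the 50% of all other genes. For 9 of the ligase genes with a called 5′ UTR peak, a start site in the RefSeq promoter table (GRCm38.p6, the same assembly as mm10) lay inside the peak. The first 30 transcribed bases of 5 of these are shown as examples from beneath peaks of either sign. No rule fixed the choice, and Fbxl12, Rnf34, Rnf144b and Trim13 are not shown. The 5 peaks are 150 to 946 bp wide, so each window is only a part of the stretch beneath its peak. Capitals mark GGAC, the core letters of the m6A consensus, read on the transcript's strand only. Trim45 (chr3:100922493-100922522, plus strand, -1.02) and Rnf186 (chr4:138967119-138967148, plus strand, -0.53) had negative peaks in the authors' deposited table. Rnf126 (chr10:79766923-79766952, minus strand, 0.86), Trim26 (chr17:36837146-36837175, plus strand, 0.98) and Rnf152 (chr1:105356681-105356710, minus strand, 0.50) had positive ones in the authors' deposited table.
Trim45: actctgggagagcccgaGGACccactacct
Rnf186: ggagaaacaagcagggcaaccaagggagca
Rnf126: gcctgccgtgcgtgccgtgcgtgccatgcg
Trim26: gggcccggagctcccggagactgctgggcg
Rnf152: ggtccgcggagcagagctcactcagcctcc
Of these windows, that of Trim45 holds the core letters. Over the first 50 bases, GGAC occurred in 1 of 3 negative and 0 of 6 positive ligase genes. In all other genes with such a peak it occurred in 18.9% of 344 negative and 21.5% of 1004 positive ones, and in 18.9% of all 32851 promoters of the table. The first base was A in 1 of 3 negative and 1 of 6 positive ligase genes, against 34.4% of all promoters. A match is a description of the letters, and its absence says only that they are not in this window.

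In the 3′ UTR, the sign of ligase peaks differed by distance from the gene end. Of the 105 called 3′ UTR peaks, 98 overlapped the RefSeq span of a gene with a known strand and could be placed. Farther than 100 bp upstream of the gene end, 56 of 60 peaks were negative (93.3%, 84.1 to 97.4%) with a median of -1.61, against 74.0% in all other genes (72.6 to 75.3%) with a median of -1.14. Within 100 bp of the end, 17 of 36 were negative (47.2%, 32.0 to 63.0%) with a median of 0.55, against 39.3% in all other genes (37.5 to 41.1%). Put the other way, 19 of the 25 positive peaks of ligase genes lay within 100 bp of the end, against 1716 of 2944 in all other genes. Both sets of genes thus had the gradient, and the ligase genes stood further to the negative side upstream, where the intervals do not overlap.

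Width moved with both sign and position: the median was 810 bp for negative and 239 bp for positive peaks of ligase genes. Among peaks of up to 1000 bp, 27 of 29 upstream peaks and 16 of 35 peaks near the end were negative. Positive peaks near the end had small, similar values in the authors' deposited table, from 0.54 in Rnf4 to 1.22 in Rnf128, and came from each of the 6 families. Negative peaks near the end in the authors' deposited table ran from -0.54 in Trim11 to -2.87 in Rnf186. The 4 positive peaks farther upstream belonged to Rnf13, Rnf139, Fbxo3 and Rnf130.

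**Figure D4:**
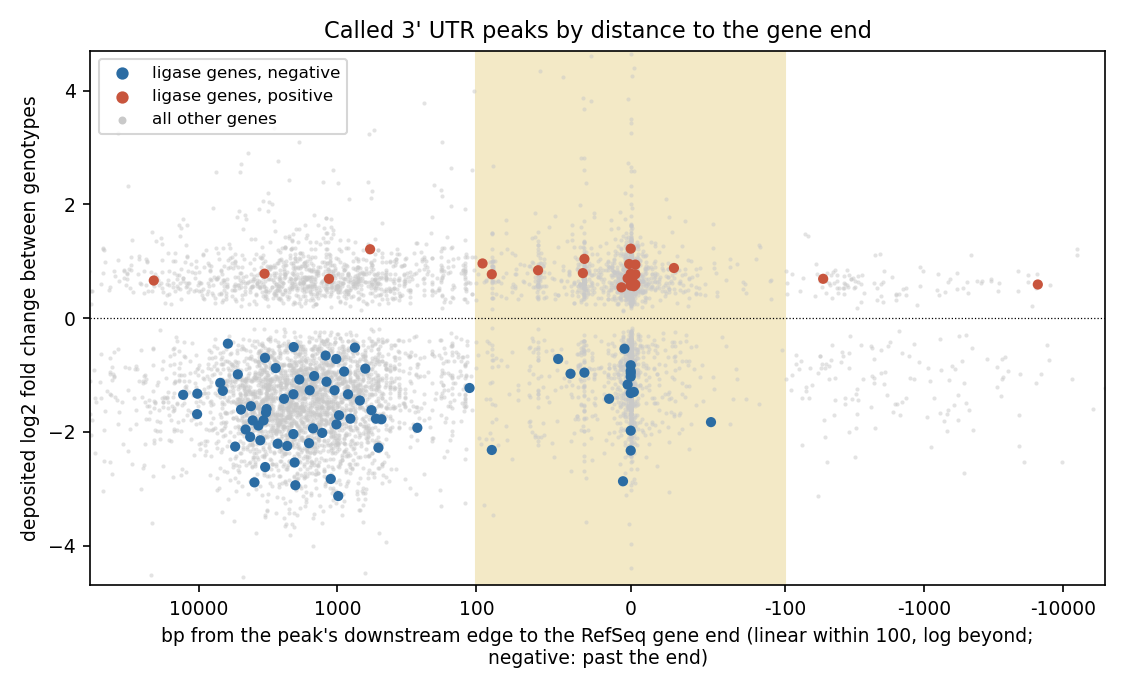
Called 3′ UTR peaks by the distance from their downstream edge to the RefSeq gene end in bp (x axis, linear within 100 bp and logarithmic beyond, the 5′ side on the left, shaded within 100 bp) and their deposited log2 fold change, for ligase genes (98 peaks, blue negative and red positive) and all other genes (grey, 90 peaks beyond the axes not drawn). Positive peaks of ligase genes gather at the end, 19 of 25 within 100 bp, while 56 of 60 peaks farther upstream are negative.

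Both signs occurred among the peaks assigned to single genes. Called peaks of both signs were held by 21 ligase genes, 22.1% of those with a called peak, against 15.3% in all other genes: 9 Rnf, 5 Trim, 3 Fbxo and 4 Fbxl genes, and no Fbxw or Socs gene. In 11 of them peaks labelled 3′ UTR had opposite signs. The positive peak was the downstream one in 7 of these 11, against 415 of 513 in all other genes (80.9%). For Trim28, Trim47 and Fbxl18, which are among the 11, the pair includes a peak outside the RefSeq span of the gene. A shared 3′ UTR is therefore not shown for them. Among these 11 genes, the 4 widest differences between 3′ UTR peaks of opposite sign were in Rnf13, Rnf103, Rnf130 and Fbxo3. In the authors' deposited table Rnf13, a ligase of endosomal and endoplasmic reticulum membranes, had -2.20 upstream and 1.21 downstream. For Rnf103 the authors' deposited table has -2.28 upstream, at the floor of the FDR scale, and 0.69 downstream at the gene end. Rnf130 and Fbxo3 ran the other way, with positive peaks of 0.66 and 0.78 upstream of negative ones of -2.26 and -1.93 in the authors' deposited table.

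A called peak in both UTRs was held by 13 ligase genes. In 5 of them a positive 5′ UTR peak stood with a negative 3′ UTR peak, namely Fbxo4, Rnf144b, Rnf152, Trim11 and Trim26, and in 6 both were negative. Rnf181 had both positive, and Rnf11 a negative 5′ UTR peak with a positive 3′ UTR peak. As shares, a positive 5′ UTR peak with a negative 3′ UTR peak made up 38.5% of the ligase genes and 35.3% of the 1462 other genes with such peaks. Both were negative in 46.2% of the ligase genes and 19.6% of the other genes, and both positive in 7.69% of the ligase genes and 39.3% of the other genes. With 13 ligase genes these shares are coarse, and their difference was not tested. The largest difference between a positive 5′ UTR and a negative 3′ UTR peak was in Rnf144b, with 1.29 and -2.21 in the authors' deposited table. That peak labelled 5′ UTR spans 13509 bp and lies 71310 bp from its transcript start by the deposited distance. Its label therefore does not place the signal near that start. A different RefSeq start of Rnf144b, at chr13:47194003, lies inside this peak. Rnf11, whose protein is a partner of several ubiquitin-editing enzymes, had a 5′ UTR value of -2.53 and a 3′ UTR value of 1.03 in the authors' deposited table. Its peak labelled 5′ UTR spans 22264 bp and covers 94.1% of the RefSeq span, so that label does not place the signal near the start. The Rnf11 peak labelled 3′ UTR lies outside the RefSeq span of the gene. Across the ligase genes 29 peaks were wider than 5000 bp, 16 of them labelled 5′ UTR, and 9 of the 29 covered over 50% of their gene.

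**Figure D5:**
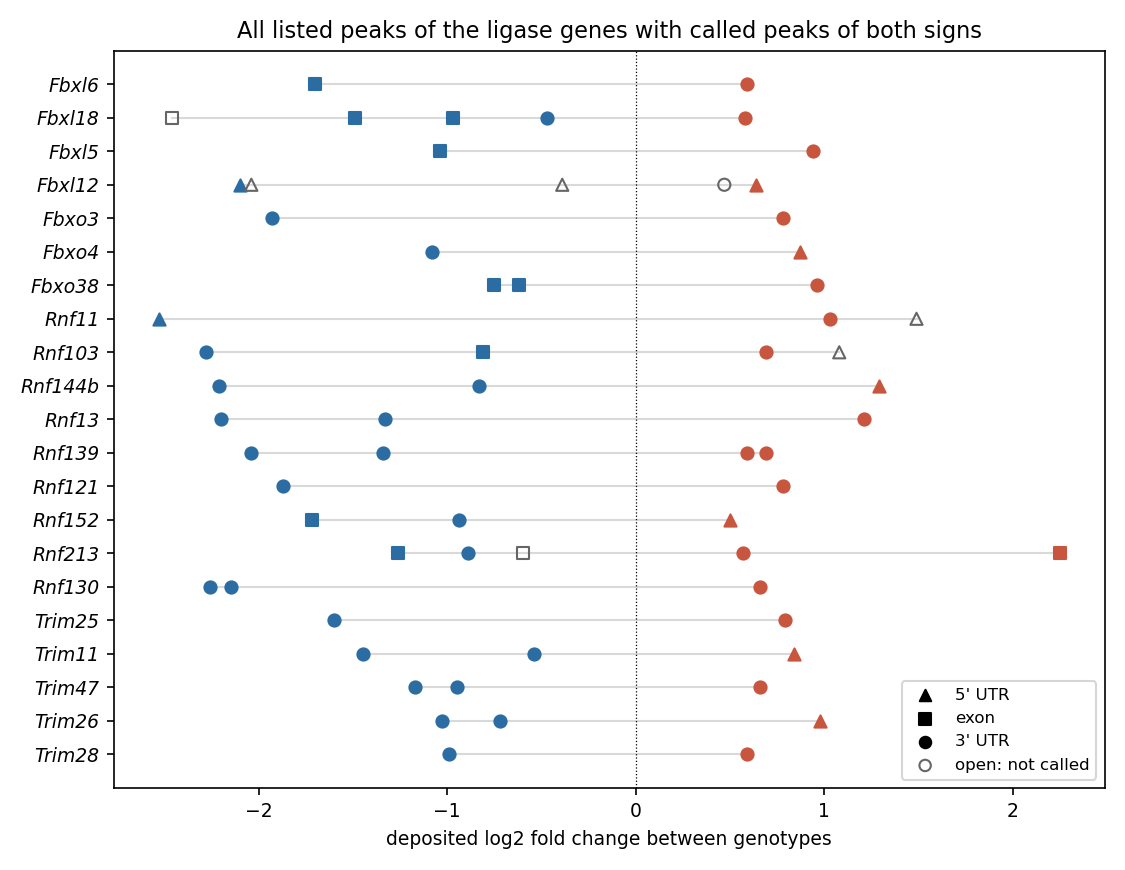
All listed peaks of the 21 ligase genes with called peaks of both signs, 1 line per gene, by deposited log2 fold change; triangles are 5′ UTR, squares exon and circles 3′ UTR peaks, and open symbols were not called. Negative symbols reach further from 0 than positive ones in most genes, with Rnf13, Rnf103 and Rnf144b among the widest.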

How the data were processed

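The source is the authors' own comparison of 12 liver libraries, 1 row for each peak. The submitters' processing notes name HISAT2 2.1.0 and the mm10 build. How peaks were called, replicates used and genotypes tested is not given in the sources used here. For each peak the authors deposited, per the file headers, a log2 fold change, the log10 of the FDR and a p-value, with its feature class, width and distance from the start of the transcript. As deposited, the log10 FDR is a score with a floor at -434 (next -321), and the deposited widths and distances are other measures, on the genome with introns included.

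Of 17692 rows, 189 with no gene name and shifted cells were left out. The members and lists were chosen with earlier results of these data known. The planned edgeR fit was not run, since the table holds no counts. Wilson intervals were used for shares and binomial order-statistic intervals for medians. Of the member genes, 118 matched a RefSeq symbol. Strand came from the RefSeq promoter table for 88 members and from the deposited distances for 25, a rule that gave the RefSeq strand for 94.3% of 6540 genes. Genes named were every Socs gene, the 4 most negative and 4 most positive called leading peaks of each other family, up to 4 called members per list by FDR, and the genes with most peaks or the widest opposite signs. An item that this rule takes is not reported here. Any further gene was picked with its values in view. The member rule, the choice of the leading peak and the calls were tested on simulated data. The steps for strand, distance to the gene end, pairs of peaks and start windows were not. Python 3.11.15, numpy 2.4.6, pandas 2.3.3 and matplotlib 3.10.9 were used.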

Additional observations from a re-analysis of the deposited data

How the results depend on the processing

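Of 114 values recomputed under alternative settings, 102 were labelled the same. For counts this meant within 1.5 times the main count, and for medians and shares inside the main interval, medians with the same sign. These intervals are wide: the Fbxl median went from -1.42 to -0.41 with 3′ UTR peaks alone and was labelled the same. Some values could not move. The FDR and size limits do not enter the choice of the leading peak, and counting overlapping peaks once keeps the peak with the smallest FDR. Keeping the KEGG-coded genes adds to the Rnf and Fbxw families alone, and none of the leading peaks of Trim, Fbxo and Fbxl lies outside the RefSeq span. Where a log2 change of 1 or more in size was required, 6 genes had a positive called leading peak and 11 peaks were called positive, and with 3′ UTR peaks alone 28 peaks were positive. With peaks of up to 1000 bp, 69 peaks were negative, and family medians turned in Rnf (0.23), Fbxw (-0.095) and Socs (0.74). With 3′ UTR peaks alone they turned in Fbxw (-1.12) and Socs (0.74), and with the KEGG-coded genes kept in Fbxw (-0.175). The median over all ligase genes was -1.42 relative to the overall median of 0.34 and -0.52 with the mean over peaks. The value of -1.42 follows from the subtraction alone. Fewer peaks entered under the width and feature limits, and fewer were called under the size limit. The cause of the other shifts was not tested. The number of negative leading genes ranged from 49 to 75. Alternatives for overlapping peaks and for distance to the gene end were chosen after seeing the data. No paired analysis was possible because the table holds no values per library, so no replicate could be left out either. The motif alternative was not run, as no genome was used here. Depth is unknown.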
